A study of Mus musculus with 12 samples.

Results

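The genes described here encode the proteins of the cytosolic ribosome. They were chosen by symbol, as every gene named *Rpl* or *Rps* with a number (and at most a final a, l or x) together with *Rplp0*, *Rplp1*, *Rplp2* and *Rpsa*, leaving out pseudogenes and the *Rps6k* kinases. Of the 24824 genes listed, 80 matched, 31 of the small 40S subunit and 49 of the large 60S subunit. The cells were AML12, an established line of immortalized mouse hepatocytes labelled wild type. Group A was grown untreated. In group B, cells were exposed to copper as CuCl2 at 300 μM and to the copper ionophore elesclomol at 40 nM (Cu/ES). Taurocholic acid (TCA), a conjugated bile acid, was added at 1000 μM on top of Cu/ES in group C and given alone at the same dose in group D. Treatment lasted 24 h and each group had 3 libraries of polyadenylated RNA. The labels do not say whether the 3 libraries came from separate cultures, so the p-values measure only the spread between these libraries.

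Each ribosomal protein is present as a single copy in a ribosome, except for the acidic stalk proteins, and the subunits are built on ribosomal RNA in the nucleolus from proteins made in the cytoplasm. The mRNAs of these genes belong to the most abundant in growing cells. Most are known to begin with a C followed by a run of pyrimidines, the 5′ terminal oligopyrimidine (TOP) motif, through which mTORC1 and LARP1 regulate their translation and stability. A single cell line can stand for hepatocytes only in part. Of 10 hepatocyte markers 7 were in the table, and in group A *Alb* (albumin) and *Hnf4a*, a transcription factor that defines hepatocytes, were listed at 0, whereas the keratins *Krt8* and *Krt18* carried most of the summed marker level of 597.8 to 650.8 FPKM. That sum was lower with Cu/ES, at 244.3 to 295.9 (group B) or 191.6 to 229.1 (group C), and 700.9 to 720.5 with TCA alone. The keratins carried the lower sum, as *Krt8* was at a mean of 343.5 FPKM without and 182.9 FPKM with Cu/ES (groups A and B). In contrast, the lipoprotein genes *Apoe* (1.73 and 7.96 FPKM) and *Apoa1* (0.00863 and 1.86 FPKM) and *Trf* (transferrin, 0.00741 and 0.718 FPKM) had higher means with Cu/ES. *Apoe* was at 20.5 FPKM in group C.

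To show how the start of these genes reads, RefSeq promoters on GRCm38.p6 were matched for 59 of the 80 genes. The files are on a later build, so these positions hold only for GRCm38.p6. Below, 30 bases are given for 6 members on which the results turn, 10 before the annotated start and 20 from it on, 5′ to 3′ on the strand of the gene, with the longest stretch of C and T near the start in capitals. The first 4 are the members that rose most with Cu/ES, and the last 2 are members that fell.
Rplp2, chr7:141447641-141447670, plus strand: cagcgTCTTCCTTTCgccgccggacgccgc
Rps12, chr10:23787190-23787219, minus strand: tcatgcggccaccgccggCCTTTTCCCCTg
Rps27, chr3:90213629-90213658, minus strand: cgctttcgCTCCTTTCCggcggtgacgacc
Rpl35, chr2:39005112-39005141, minus strand: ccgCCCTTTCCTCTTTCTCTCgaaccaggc
Rps2, chr17:24720053-24720082, plus strand: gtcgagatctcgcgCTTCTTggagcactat
Rps27l, chr9:66946076-66946105, plus strand: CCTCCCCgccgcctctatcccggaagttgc

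The stretch was 10 bases long in *Rplp2*, 11 in *Rps12*, where it began only at base 9 from the start, 9 in *Rps27* and 18 in *Rpl35*. It was 6 bases long in *Rps2*, but only 4 in *Rps19* and 5 in *Rplp0*, which rose with Cu/ES and are not printed above. In *Rps27l* it was 9 bases long and began before the printed window. Over the 71 annotated starts of the matched genes, 19.7% had a C followed by 4 pyrimidines exactly at the start, against 2.51% of all 32851 starts in the table. A run of at least 8 pyrimidines within 10 bases of the start was found in 42.3% of the starts of these genes and in 13.7% of all starts. Within the window of 250 bases before to 50 after the start, the letters CCGGAAG, searched on both strands, were found in 35.2% of the starts of these genes and in 8.86% of all starts. The letters AAGATGG, searched on the plus strand only, were found in 5.63% and 3.6%. Each motif was searched on its own, so matches of both can share bases. These matches describe the letters of the reference sequence and show no binding.

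FPKM, the deposited unit, is the number of fragments of a gene scaled by the length of its model and the total of the library, so levels of different genes can be compared per length. In group A the highest members were *Rps2*, a core protein of the 40S subunit near the mRNA entry site, at 2742 ± 99.1 FPKM (mean ± SD, n = 3 libraries), *Rpl41*, the smallest ribosomal protein, at 2359 FPKM, *Rps18* of the 40S head at 2193 FPKM, and the stalk proteins *Rplp1* at 2005 FPKM and *Rplp0* at 1856 FPKM. The lowest were *Rpl3l*, listed at 0, *Rpl32l* at 0.159 FPKM, *Rps27l* at 28.1 FPKM, *Rpl6l* at 63.9 FPKM and *Rpl21* at 85.6 FPKM. The lengths behind these levels, worked out from the steps between FPKM values, ran from 322 to 5136 bases with a median of 830. Long models such as those of *Rps15a* at 5136 bases and *Rps20* at 3641 bases lower the FPKM of the gene. Ribosomal protein genes also have many near-identical processed pseudogenes, and how the counting treated reads that match several places is not given in the sources used here, so levels of single members are uncertain. The table listed 10 pseudogenes of these genes, of which *Rpl34-ps1* was the highest, with a mean of 51.7 FPKM without and 122.3 FPKM with Cu/ES (groups A and B).

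The summed level of the 80 genes was higher in both groups given Cu/ES. It was 17.8%, 17.8% and 18.6% of the summed FPKM in the 3 libraries of group A, and 27.3%, 26.7% and 28.8% in group B. In group C it was 25.5%, 28.2% and 25.9%, and in group D it was 18.6%, 16.9% and 17.1%. The libraries with Cu/ES did not overlap those without it, while groups B and C overlapped each other, as did groups A and D. As a ratio of group means the share was 1.53 times higher in group B than in group A and 1.51 times higher in group C than in group D. Counted in recovered reads instead of FPKM, the 80 genes took 5.80% to 6.24% of a library of group A, 11.1% to 12.2% with Cu/ES, 9.83% to 11.9% with Cu/ES and TCA, and 5.53% to 6.24% with TCA alone. FPKM values and shares are relative to the library, and in bulk samples a change in RNA per cell and a change in the number of cells cannot be told apart.

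**Figure D1:**
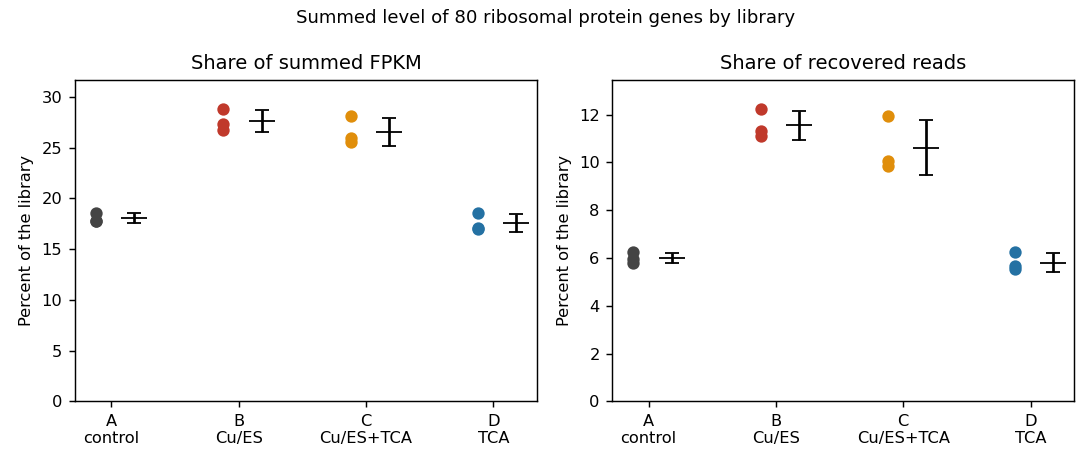
Share of each library taken by the 80 ribosomal protein genes, in percent of the summed FPKM (left) and of the recovered reads (right), by group; points are libraries, and the line and bars are the mean and SD of 3 libraries. On the left the 6 libraries with Cu/ES sit between 25.5% and 28.8%, above the 6 without it, which sit between 16.9% and 18.6%.

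The subunits held similar shares in all groups. Genes of the 40S subunit made up 41.6% ± 0.0825 (SD, n = 3) of the summed FPKM of the 80 genes in group A. The share was 41.5% ± 0.152 with Cu/ES, 41.4% ± 0.276 with Cu/ES and TCA, and 41.7% ± 0.162 with TCA alone. The members filled 29 to 32 of the 50 highest places in every library and 54 to 60 of the 100 highest.

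Recovered library totals ran from 29115011 to 34912748 fragments in the libraries with Cu/ES and from 38298857 to 39782142 in those without. Replicate 2 stood apart from the others in every group, and most in group C. A chi-square statistic of the counts, per gene, was 72.1 against replicate 1 and 63.2 against replicate 3 in group C, where those 2 differed from each other by 6.89. The same statistic was 28.2 and 28.5, against 10.5, in group A. It was 26.6 and 24.9, against 10.9, in group B, and 30.3 and 22.8, against 12.04, in group D. Results that rest on replicate 2 of group C are given with and without it.

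To see what Cu/ES did to each gene, group B was compared with group A. Expression was tested as log2(FPKM + 1) with limma in a fit of all 12 libraries, over the 10615 genes with a mean of at least 1 FPKM, with Benjamini-Hochberg adjustment, and 78 of the 80 members were among them. The 2 others, *Rpl3l* and *Rpl32l*, fell below that mean. With Cu/ES, 74 of the 78 tested members rose at an adjusted p under 0.05, where 20.1% of all genes tested did, and 2 members fell, where 72.0% of all genes tested did. At the stricter threshold that also asks for a log2 fold change beyond 1, 40 members rose, against 10.1% of all genes, and 1 fell, against 53.0%. The median log2 fold change of the tested members was 1.01, with quartiles of 0.81 and 1.19, whereas the median of all genes tested was -1.10, so that the members lay 2.11 above the median gene. The size and direction depended on the scale, with a member median of 2.35 after median-ratio scaling, where the median of all genes moved by 1.11 to 0.01. The member median was 0.64 in TPM and 0.07 after quantile normalization, where 34 of the 78 members had negative values. Quantile normalization gives every library the same set of values, so here and below it shows only changes in rank. Members filled 29 to 32 of the 50 highest places in every library, which left their median little room to move.

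**Figure D2:**
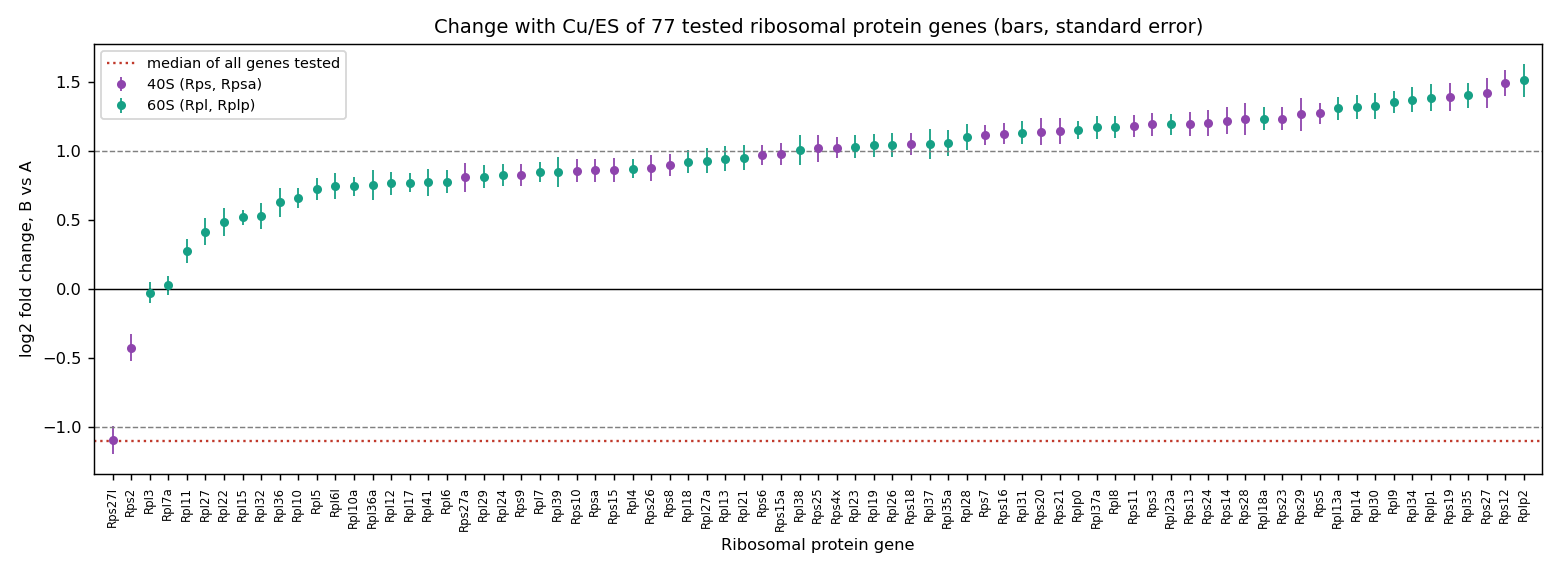
Log2 fold change in group B vs. group A of 77 of the 78 tested members on the log2(FPKM + 1) scale, in rising order, with the standard error from limma; purple points are 40S genes and green points 60S genes. *Rps27l* at -1.09 and *Rps2* at -0.42 lie below 0 (both turn positive after median-ratio scaling), *Rpl3* and *Rpl7a* lie at 0, and the others reach up to 1.51 for *Rplp2*, while the dotted line marks the median of all genes tested at -1.10.

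For 74 members the lowest of the 3 libraries of group B was above the highest of group A, where 20.5% of all genes tested showed this. The reverse held for 2 members, against 72.4% of all genes. Of the 78 members, 41 had a log2 fold change between 0.8 and 1.2, on either side of the threshold of 1, and 71 had at least 0.5. Among 40S genes, 29 of 31 rose at the adjusted p and 19 passed both thresholds, with a median of 1.12. Among 60S genes, 45 of 47 rose and 21 passed both thresholds, with a median of 0.93.

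The stalk of the 60S subunit, which recruits elongation factors to the ribosome, held the member with the highest rise. *Rplp2*, an acidic protein of the stalk tip, measured 825, 759 and 912 FPKM in group A. In group B it measured 2329, 2281 and 2510 FPKM. The groups lay far apart, at a log2 fold change of 1.51 ± 0.12 (SE) with an adjusted p of 1.84e-08 in limma. Its partner *Rplp1* rose from 1972, 1956 and 2088 FPKM to 5097, 5034 and 5616 FPKM, a log2 fold change of 1.39 ± 0.10, which made it the highest member in group B. *Rplp0*, the base on which both are anchored, rose by a log2 fold change of 1.15 ± 0.06, from a mean of 1856 to 4130 FPKM. After quantile normalization *Rplp0* was at -0.06 and *Rplp1* at -0.02, while *Rplp2* was at 0.53.

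Among the other proteins, *Rps12* and *Rps27* of the 40S subunit and *Rpl35*, a 60S protein near the exit of the peptide tunnel, rose most. *Rps12* measured 330, 325 and 359 FPKM in group A and 914, 917 and 1033 FPKM in group B, a log2 fold change of 1.49 ± 0.09. *Rps27*, a protein with a zinc finger, measured 961, 1015 and 1040 FPKM in group A and 2592, 2689 and 2801 FPKM in group B, a log2 fold change of 1.42 ± 0.11. *Rpl35* rose from 1212, 1206 and 1286 FPKM to 3145, 3118 and 3568 FPKM, a log2 fold change of 1.41 ± 0.09. In each of them the libraries of group B were more than 2 times the highest library of group A. Adjusted p-values in limma were 7.75e-10 for *Rps12*, 8.68e-09 for *Rps27* and 1.46e-09 for *Rpl35*.

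The genes mutated in Diamond-Blackfan anaemia, an inherited failure of red cell production, spread over the range. *Rps19*, the gene most often affected and needed to mature the 40S subunit, measured 567, 582 and 618 FPKM in group A and 1475, 1540 and 1640 FPKM in group B, a log2 fold change of 1.40 ± 0.10. *Rps24* rose 2.30-fold, from a mean of 377.0 to 870.0 FPKM. *Rps26*, which lines the mRNA exit channel, rose by 0.88 ± 0.10 on the log2 scale. *Rpl5* and *Rpl11* bind the 5S ribosomal RNA together and, outside the ribosome, the p53 regulator MDM2. *Rpl5* rose by 0.73 ± 0.08 on the log2 scale, while *Rpl11* rose by 0.28 ± 0.09 (adjusted p = 0.00719 in limma). For *Rpl11* the values were 375, 393 and 393 FPKM in group A and 459, 447 and 505 FPKM in group B, which do not overlap, and its log2 fold change was -0.09 in TPM and -0.43 after quantile normalization.

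*Rpsa*, a 40S protein also known as the laminin receptor, rose from a mean of 998.5 ± 23.7 to 1815 ± 86.1 FPKM (SD, n = 3), a log2 fold change of 0.86. *Rps27a*, made as a fusion with ubiquitin, rose from a mean of 1221 to 2144 FPKM, a log2 fold change of 0.81. *Rpl10*, among the last proteins to join the 60S subunit, rose by 0.66 on the log2 scale, and *Rpl39*, a small protein of the peptide tunnel, by 0.85. *Rpl41* and *Rps18*, among the highest members in group A, rose by 0.78 and 1.05. After quantile normalization, all 6 of them had negative values, from -0.60 for *Rpl41* to -0.03 for *Rpl39*.

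The exceptions to the rise were *Rps27l*, *Rps2*, *Rpl3* and *Rpl7a*. *Rps27l*, a paralog of *Rps27* known as a target of p53, measured 27.6, 29.2 and 27.6 FPKM in group A and 11.6, 13.4 and 12.97 FPKM in group B. The groups did not overlap and the log2 fold change was -1.09 ± 0.10, with an adjusted p of 1.16e-07 in limma. It rested on 2905 to 3126 recovered reads per library in group A and 1012 to 1179 in group B. Its log2 fold change lay 0.006 above the median of all genes, and with median-ratio scaling its log2 fold change was 0.18.

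*Rps2* measured 2710, 2664 and 2854 FPKM in group A and 1980, 2078 and 2076 FPKM in group B. It was the highest member in group A and every library of group B lay below it, with a log2 fold change of -0.42 ± 0.10 and an adjusted p of 7.86e-04 in limma, though median-ratio scaling gave 0.92. *Rpl3*, a large 60S protein that reaches the peptidyl transferase centre, measured 1445, 1440 and 1537 FPKM in group A and 1470, 1308 and 1578 FPKM in group B. These values overlapped, at a log2 fold change of -0.03 ± 0.07 (adjusted p = 0.75 in limma). *Rpl7a* of the 60S subunit was at a mean of 637.3 FPKM in group A and 649.5 FPKM in group B, a log2 fold change of 0.03 (adjusted p = 0.695 in limma). In an exact permutation test, two-sided, the smallest p that 3 libraries against 3 allow is 0.1. *Rps27l*, *Rps2*, *Rplp2*, *Rps12* and *Rps19* had this p in group B vs. A. It was fixed in advance, because they were named for groups without overlap, and any such gene has this p. Of all genes tested, 20.5% were higher and 72.4% lower without overlap. *Rpl3* had an exact p of 0.9.

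**Figure D3:**
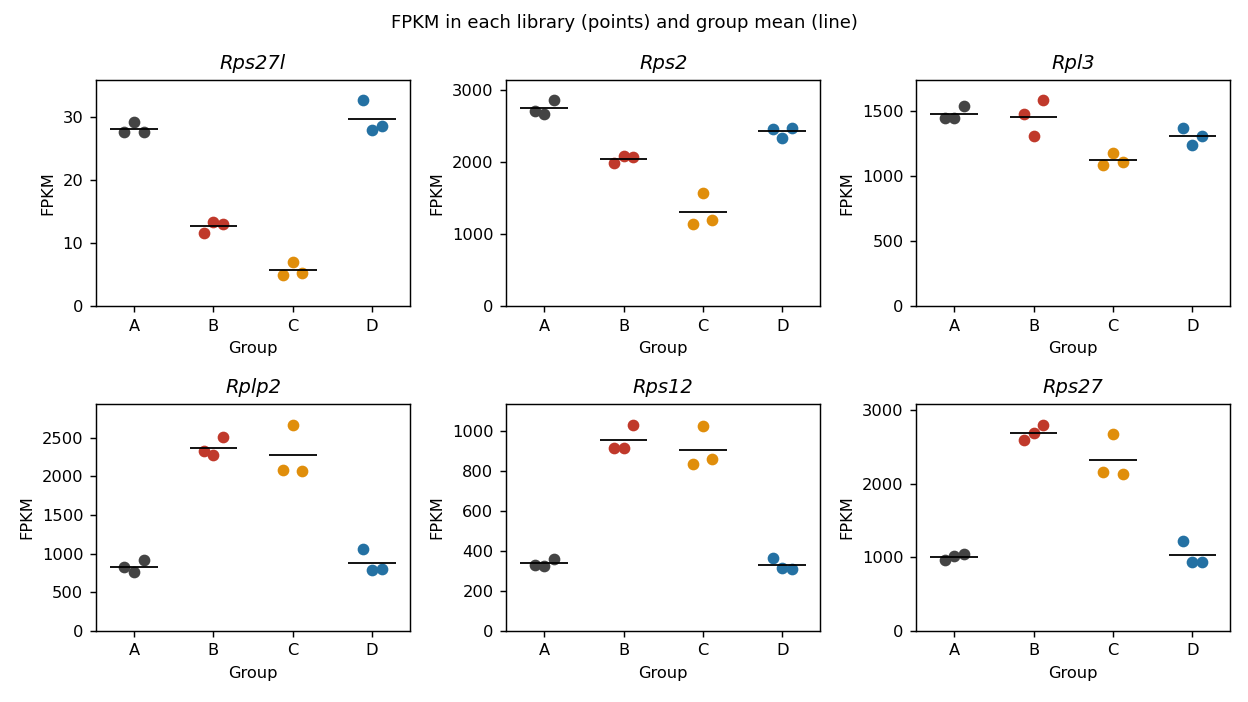
FPKM of 6 members in each library (points) with the group mean (line), on linear axes from 0. *Rplp2*, *Rps12* and *Rps27* are high in groups B and C, *Rpl3* is at a similar level in groups A and B and lower in C, and *Rps27l* and *Rps2* step down from group A to B and again to C, where *Rps27l* ends at 5.01, 7.02 and 5.31 FPKM.

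Where a second gene encodes a similar protein, the balance between the pair was read within each library, as a ratio of FPKM that no linear scaling of a library changes. The ratio of *Rps27* to *Rps27l* was 34.7 to 37.7 in untreated cells and 200.6 to 223.0 with Cu/ES. With Cu/ES and TCA it was 381.7 to 429.9, and with TCA alone 32.7 to 37.3. The ranges of groups B and C stood apart from each other and from groups A and D. *Rpl7l1*, a paralog of *Rpl7* outside the symbol rule, fell behind in the same way. In group B vs. A the log2 fold changes of *Rps27l* and *Rpl7l1* were -1.09 and -1.38, against a median of -1.10 for all genes tested. A widening ratio with Cu/ES is therefore not particular to these pairs. The ratio of *Rpl7* to *Rpl7l1* was 23.4 to 25.03 in untreated cells, 113.3 to 126.3 with Cu/ES, 212.1 to 247.0 with Cu/ES and TCA, and 16.1 to 18.3 with TCA alone. For *Rpl22*, whose paralog *Rpl22l1* it is known to repress, the ratio to *Rpl22l1* was 0.995 to 1.27 in untreated cells, 0.801 to 0.983 with Cu/ES and 0.577 to 0.597 with Cu/ES and TCA. The ratio of *Rpl36a* to *Rpl36al* was 1.72 to 1.81 in group A and 2.49 to 2.73 in group B. By contrast *Rpl6* to *Rpl6l* overlapped between all groups, at 8.12 to 9.10 in group A and 8.50 to 9.12 in group B.

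*Rpl3l*, the paralog of *Rpl3* known from heart and skeletal muscle, had 0 recovered reads in every library of groups A and D. In group B it had 49, 60 and 37 reads, or 0.842, 1.02 and 0.655 FPKM, and in group C 49, 92 and 46 reads, or 0.916, 1.43 and 0.775 FPKM. Against a floor of 3 reads in each library of group A, its mean in group B was at least 19.7-fold higher, and against the same floor in group D its mean in group C was at least 25.2-fold higher. Its level in group B was still 1282 to 2412 times below that of *Rpl3*. *Rpl32l* had 0 to 10 reads per library, with 2, 0 and 9 in untreated cells and 5, 7 and 5 with Cu/ES, and no change was detectable at this depth.

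The rise was described further by what the members share. Across the 78 tested members, the log2 fold change in group B vs. A had a Spearman correlation of 0.08 with the level in group A and of -0.28 with the length of the gene model. The order of levels was nearly kept, with Spearman correlations over the 78 members of 0.998 between groups A and D, 0.931 between A and B and 0.902 between A and C. These are descriptions over genes that share libraries and scaling. Levels spread a little wider with Cu/ES: the SD of log2(FPKM + 1) over members was 1.16 in untreated cells, 1.32 with Cu/ES, 1.40 with Cu/ES and TCA, and 1.16 with TCA alone. Without *Rps27l*, left out after its values were seen, the SD was 1.05, 1.09, 1.11 and 1.05 in the same order. The 28 tested members with a run of at least 8 pyrimidines at a start had a median log2 fold change of 1.01, and the 29 matched members with shorter runs had 1.03. For the letters CCGGAAG the medians were 0.99 in the 24 members with them and 1.03 in the 33 without.

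Genes of high expression or short length were set beside the rise. The 178 other genes with at least 200 FPKM in group A had a median log2 fold change of -0.001 in group B vs. A. The 710 genes with models under 1000 bases had -0.19, but this set includes members, whose own median length was 830 bases. The part of high expression or short length in the members' rise was not tested.

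To see whether TCA changed the response to Cu/ES, group C was compared with group B. These libraries of group B are the ones compared with group A above. Most members were slightly lower: 72 of 78 had a negative log2 fold change, where 5746 of the 10615 genes tested did. At an adjusted p under 0.05, 16 fell, where 23.6% of all genes tested did. None rose at the adjusted p, against 20.4% of all genes, or past both thresholds, against 1.13%. None rose at an unadjusted p under 0.05 in limma, where 21 were lower, and the share of all genes at that p was not counted. Limma-voom on recovered reads also called no member higher. The median of the members was -0.13 on the log2 scale, against -0.03 for all genes tested. The 178 other genes with at least 200 FPKM in group A had a median of -0.18. For the 710 genes with models under 1000 bases, which include members, it was -0.20. The part of high expression or short length in the members' change was not tested. The median of the members was -0.06 in TPM, -0.07 after median-ratio scaling and -0.02 after quantile normalization. In the last of these 12 members were called higher and 7 lower, and the share of all genes under that scaling was not counted. Of the 16, 6 encoded 40S and 10 encoded 60S proteins. Groups did not overlap for 14 lower members, against 27.2% of all genes tested, and for 0 higher members, against 22.0%.

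Replicate 2 of group C decided how many passed. The members of this library were a median of 0.05 above the mean of group B on the log2 scale, with 55 of 78 above it, whereas replicates 1 and 3 of group C were 0.25 and 0.20 below, with 0 of 78 above. Without replicate 2, 48 members were lower in group C, where 24.7% of all genes tested were. Without replicate 1 the count was 6, against 21.2% of all genes, without replicate 3 it was 5, against 20.6%, and without replicate 3 of group B it was 6, against 21.2%.

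**Figure D4:**
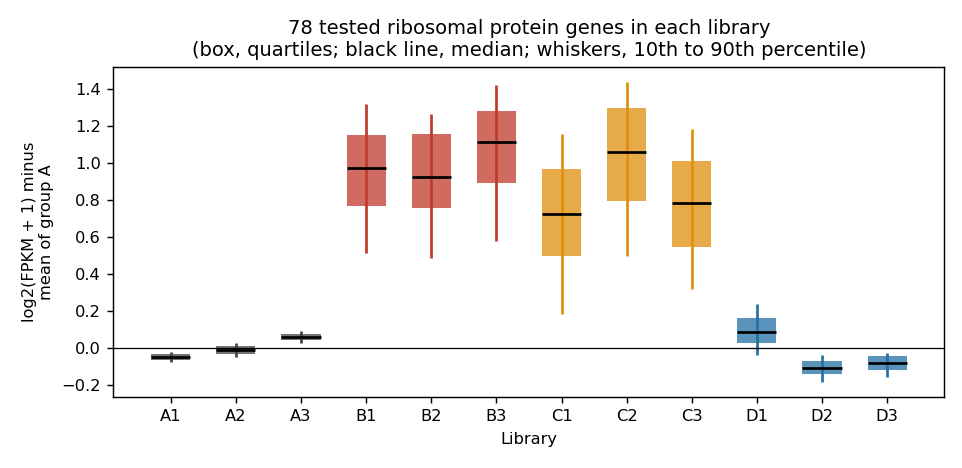
Deviation of the 78 tested members in each library from the mean of group A, on the log2(FPKM + 1) scale; boxes are quartiles over members, black lines medians and whiskers the 10th to 90th percentile. Replicate 2 of group C has a median of 1.06, among the libraries of group B at 0.92 to 1.11, while replicates 1 and 3 lie at 0.73 and 0.78 and groups A and D lie close to 0.

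The members that fell most with TCA on top of Cu/ES were *Rps27l* and *Rps2*. *Rps27l* measured 5.01, 7.02 and 5.31 FPKM in group C, all below the lowest library of group B at 11.6 FPKM. Its log2 fold change was -1.02 ± 0.10 (adjusted p = 6.54e-06 in limma), the single member past both thresholds, where 1.16% of all genes tested passed them in this direction. No member passed both without replicate 2 of group B, without replicate 1 or replicate 3 of group C, or with quantile normalization. The reads behind it were 401, 673 and 471. *Rps2* measured 1145, 1568 and 1201 FPKM in group C, again without overlap, at a log2 fold change of -0.66 ± 0.10 (adjusted p = 1.05e-04 in limma). In both genes the value nearest to group B was that of replicate 2.

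*Rpl36*, a 60S protein, measured 769, 758 and 875 FPKM in group B and 510, 672 and 532 FPKM in group C, a log2 fold change of -0.49 ± 0.11. *Rpl3* measured 1080, 1175 and 1106 FPKM in group C, a log2 fold change of -0.37 ± 0.07 (adjusted p = 0.00122 in limma). It had not passed the test in group B vs. A. The other 12 members that fell, with log2 fold changes from -0.31 to -0.22, included *Rpl6l*, *Rpsa*, *Rps21*, *Rpl6*, *Rps15*, *Rpl37*, *Rpl28*, *Rpl37a*, *Rpl24*, *Rpl11* and *Rpl10a*. The members that had risen most in group B lay near their level there: *Rplp2* measured 2081, 2669 and 2065 FPKM in group C, with a log2 fold change of -0.07 ± 0.12 (adjusted p = 0.666 in limma), and *Rps12* measured 837, 1024 and 863 FPKM, with -0.08 ± 0.09 (adjusted p = 0.532 in limma).

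TCA alone was compared with the untreated group. At an adjusted p under 0.05, 0 of 78 members were called in group D vs. A by limma or by limma-voom on recovered reads, where 10.5% of all genes tested were higher and 11.5% lower. Past both thresholds the shares of all genes were 0.0659% higher and 0.151% lower, again with 0 members. At an unadjusted p under 0.05 limma called 1, *Rpl3*, at a log2 fold change of -0.18 ± 0.07 (adjusted p = 0.102), and the share of all genes at that p was not counted. The log2 fold changes of the members ran from -0.18 to 0.13 with a median of -0.03, and the median of all genes tested was -0.01. Groups did not overlap for *Rpl3*, *Rpl6*, *Rps2*, *Rps6* and *Rpsa*, named after their values were seen, each lower in group D, against 23.5% of all genes tested. *Rps27l* measured 32.6, 27.9 and 28.5 FPKM in group D and overlapped group A, at a log2 fold change of 0.07 ± 0.10. Replicate 1 of group D was the high library, with 62 of 78 members above the mean of group A against 0 and 3 in the others.

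Cu/ES in the presence of TCA was read as group C vs. D. In that background 73 of 78 members rose at an adjusted p under 0.05, where 20.9% of all genes tested did, and 28 passed both thresholds, against 11.2%. The median was 0.90 for the members and -1.13 for all genes. Past both thresholds the count was 6 in TPM, 76 after median-ratio scaling and 0 after quantile normalization, with member medians of 0.62, 2.29 and 0.11. The shares of all genes under these scalings were not counted. The highest rises were those of *Rps12* at 1.46 ± 0.09, *Rpl13a* at 1.38 ± 0.08, *Rpl9* at 1.38 ± 0.08, *Rplp2* at 1.37 ± 0.12 and *Rpl34* at 1.34 ± 0.09 on the log2 scale. *Rpl13a*, known for a second role in silencing inflammatory mRNAs, measured 2990, 3533 and 2952 FPKM in group C and 1267, 1181 and 1181 FPKM in group D. *Rpl9* measured 1695, 1977 and 1653 FPKM in group C and 746, 642 and 659 FPKM in group D. The groups were well apart in both.

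The members that fell in group C vs. D were *Rps27l* at -2.19 ± 0.10, *Rps2* at -0.91 ± 0.10 and *Rpl3* at -0.22 ± 0.07 (adjusted p = 0.0131 in limma), where 71.5% of all genes tested fell and 53.3% did so past both thresholds, as *Rps27l* did, and after median-ratio scaling *Rps2* was at 0.48 and *Rpl3* at 1.17. *Rpl11* and *Rpl7a* did not pass the test, at 0.14 and 0.00. Side by side, the median of the members was 1.01 in group B vs. A and 0.90 in group C vs. D.

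**Figure D5:**
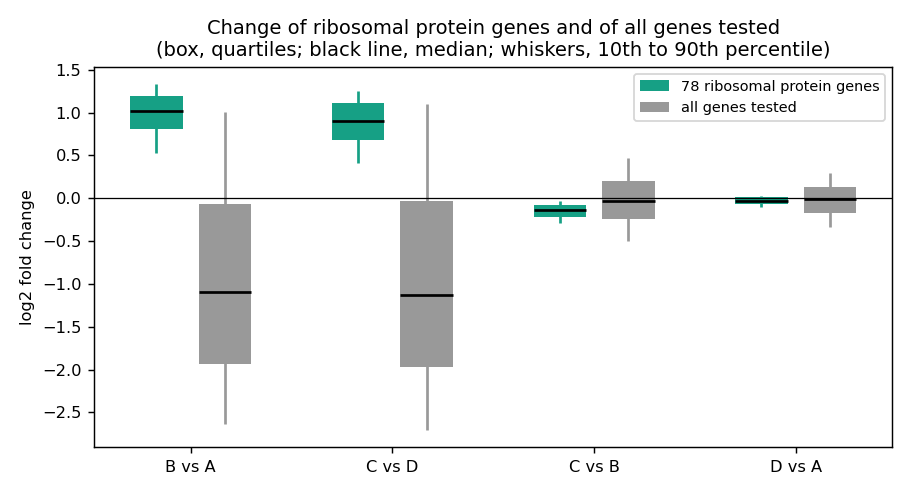
Log2 fold changes on the log2(FPKM + 1) scale of the 78 tested members (green) and of all 10615 genes tested (grey) in 4 comparisons; boxes are quartiles, black lines medians and whiskers the 10th to 90th percentile. The median of the members lies at 1.01 and 0.90 in the comparisons that add Cu/ES and at -0.13 and -0.03 in those that add TCA, against -1.10, -1.13, -0.03 and -0.01 for all genes.

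The difference between the TCA effect with and without Cu/ES was tested as an interaction in the same fit. It passed an adjusted p of 0.05 for 2 of 78 members, both lower with Cu/ES, where 19.8% of all genes tested passed in that direction. *Rps27l* had a difference of -1.09 ± 0.15 on the log2 scale (adjusted p = 1.29e-04 in limma) and *Rps2* of -0.48 ± 0.14 (adjusted p = 0.0132 in limma). Past both thresholds it held for *Rps27l* alone, against 1.73% of all genes lower and 1.75% higher. None passed in the other direction, against 17.7% of all genes, nor did any at an unadjusted p under 0.05. At that p 6 were lower, and the share of all genes was not counted. Without replicate 2 of group C, 23 members passed as lower, where 22.2% of all genes tested did.

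Ribosomal genes that the symbol rule does not reach were counted in the same way. Of 8 tested in group B vs. A, 7 rose at the adjusted p and 4 passed both thresholds, where 20.1% and 10.1% of all genes tested did, with a median of 1.03 that was 0.17 after quantile normalization. They included *Fau*, which encodes a ribosomal protein fused to a ubiquitin-like protein, at 2.46-fold higher, and *Rps27rt*, a copy of *Rps27*, at 2.36-fold higher. The exception was *Rpl7l1*, found on precursors of the 60S subunit, at 47.5, 53.4 and 50.4 FPKM in group A and 18.1, 19.3 and 18.7 FPKM in group B, a log2 fold change of -1.38 ± 0.07 that was -0.08 after median-ratio scaling. It fell again in group C vs. B, to 9.11, 9.78 and 8.21 FPKM (-0.98 ± 0.07), and rose in group D vs. A by 0.37 ± 0.07, the interaction being -1.35 (adjusted p = 5.01e-06 in limma).

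Of 20 genes with other TOP mRNAs, including the elongation factors, 15 rose and 4 fell with Cu/ES at the adjusted p, against 20.1% and 72.0% of all genes tested, with a median of 0.62 that turned to -0.01 after quantile normalization. *Tpt1*, a growth-related protein bound to elongation factors, rose by 1.62 ± 0.07 on the log2 scale, from 1395, 1438 and 1525 FPKM to 4485, 4223 and 4671 FPKM, and *Gas5*, a noncoding RNA with a TOP start, rose by 1.54 ± 0.12. In the same list *Vim* (vimentin, an intermediate filament protein) fell by 2.66 and *Eif4a2*, an RNA helicase of initiation, fell by 1.89. In group C vs. B 3 of the 20 were higher and 5 lower at the adjusted p, against 20.4% and 23.6% of all genes tested. In group D vs. A 0 were higher and 4 lower, against 10.5% and 11.5%.

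Chaperones and importers that carry ribosomal proteins to the nucleus moved with a direction that depended on the scale. Of 13 genes 7 fell and 3 rose with Cu/ES at the adjusted p, against 72.0% and 20.1% of all genes tested, with a median of -0.44. After median-ratio scaling 1 fell and 11 rose, with a median of 0.87, and the share of all genes was not counted there. *Pdcd2* and *Pdcd2l*, known as chaperones of the *Rps2* protein, measured a mean of 14.7 and 10.9 FPKM without Cu/ES and 4.26 and 3.77 FPKM with it. Their log2 fold changes were -1.58 ± 0.12 and -1.32 ± 0.10, or -0.40 and -0.17 after median-ratio scaling and -0.38 and -0.02 after quantile normalization. *Tnpo1*, an importin, was at -1.03 and at 0.27 after median-ratio scaling, while *Nap1l1*, a histone and ribosomal protein chaperone whose own mRNA has a TOP start, rose by 1.23. In group C vs. B 2 were higher and 8 lower at the adjusted p, against 20.4% and 23.6% of all genes tested. In group D vs. A 4 were higher and 0 lower, against 10.5% and 11.5%.

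Of 18 genes of mTORC1 signalling and LARP1, 12 fell and 5 rose with Cu/ES at the adjusted p, against 72.0% and 20.1% of all genes tested, with a median of -0.91 that turned to 0.33 after median-ratio scaling. The translation repressor *Eif4ebp1* fell by 2.49 on the log2 scale, its relative *Eif4ebp2* fell by 2.96, *Tsc2*, an inhibitor of mTORC1, fell by 2.42, and *Akt1s1*, which encodes the mTORC1 inhibitor PRAS40, rose by 2.57. *Eif4ebp1* measured 187, 180 and 214 FPKM in group A and 33.5, 34.2 and 33.0 FPKM in group B. With TCA added to Cu/ES 3 of the 18 were higher and 3 lower at the adjusted p, against 20.4% and 23.6% of all genes tested. With TCA alone 4 were higher and 1 lower, against 10.5% and 11.5%.

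Of 18 genes of ribosome rescue and quality control, which deal with stalled ribosomes, 16 fell and 1 rose with Cu/ES, with a median of -0.87. After median-ratio scaling 6 fell and 10 rose, with a median of 0.38, and the share of all genes was not counted there. *Ankzf1*, which frees stalled peptides from their tRNA, fell by 3.07 on the log2 scale, from 12.3, 10.7 and 11.0 FPKM to 0.372, 0.662 and 0.373 FPKM. *Rnf14*, a ubiquitin ligase of stalled ribosomes, fell by 2.51, *Gcn1*, a sensor of collided ribosomes, by 1.98, and *Tcf25*, a part of the quality control complex on 60S subunits, by 1.61, and all 4 stayed negative under the other scalings. The count of 16 of 18 stood beside 72.0% of all genes tested that fell. In group C vs. B 5 were higher and 2 lower at the adjusted p, against 20.4% and 23.6% of all genes tested. In group D vs. A 3 were higher and 0 lower, against 10.5% and 11.5%. None of the genes in these 4 lists passed both thresholds in group C vs. B or D vs. A, and nor did the genes outside the symbol rule. Of all genes tested, 1.13% were higher and 1.16% lower past both in C vs. B, and 0.0659% and 0.151% in D vs. A.

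Markers of other cell types were also read. The summed level of 3 cholangiocyte markers was 230.1 to 325.0 FPKM in untreated cells, 111.2 to 139.9 with Cu/ES, 130.3 to 136.2 with Cu/ES and TCA, and 157.5 to 244.7 with TCA alone. *Krt19* carried this sum, at a mean of 267.7 FPKM in group A and 77.3 FPKM in group B, whereas *Sox9* was at 10.6 and 50.9 FPKM. *Krt7* was at a mean of only 0.0378 FPKM in group A and was listed at 0 in all libraries of groups B, C and D. The sum of 3 stellate cell or fibroblast markers was, in the same order of groups, 19.7 to 36.6, 1.61 to 3.25, 0.830 to 1.59 and 12.4 to 24.4 FPKM. Of these, *Col1a1* and *Des* were lower in group B than in group A. *Acta2* went the other way, from a mean of 0.00604 to 0.360 FPKM. The sum of 3 macrophage markers, with *Adgre1* listed at 0 in groups A, B and D, was 72.5 to 102.4, 24.5 to 28.9, 23.9 to 36.5 and 25.5 to 37.03 FPKM. *Cd68* carried it, at a mean of 92.2 FPKM in group A and 27.2 FPKM in group B, while *Ptprc* was at 0.0176 and 0.018 FPKM. The part of these markers in the results was not tested.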

How the data were processed

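RNA of AML12 cells in 4 groups of 3 libraries was analysed, with groups and doses from the sample labels. The authors deposited FPKM values per gene and library, with replicates kept apart. The submitters' processing notes name fastp, HISAT2, HTSeq and the build GRCm39, and versions, annotation, strand setting and treatment of multiply mapping reads are not given in the sources used here. All 12 columns were used.

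Genes with a mean of at least 1 FPKM were fitted as log2(FPKM + 1), pseudocount 1, with limma 3.58.1 in R 4.3.3 (groups as terms, empirical Bayes with a mean-variance trend, 8 residual degrees of freedom). Fold changes on this scale understate those of low genes. Tests were two-sided, with Benjamini-Hochberg adjustment over all genes tested. The 2 thresholds were 0.05 for the adjusted p and 1 for the absolute log2 fold change. Library totals, gene model lengths and reads were worked out from the steps between FPKM values, and 20678 of 20801 genes above 0 in at least 3 libraries (99.4%) gave whole reads within 0.03 reads. These reads cover counting error only. Promoters came from RefSeq on GRCm38.p6.

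The members and lists were chosen with earlier results of these data known. Genes named are up to 5 highest rises and falls per comparison (mean of at least 5 FPKM, adjusted p under 0.05, no overlap), the 5 highest and lowest in group A, the stalk, *Rpsa*, *Rps27a*, tissue-restricted paralogs with their partners, 5 genes of Diamond-Blackfan anaemia, and up to 4 genes per list past both thresholds. *Rpl7a*, the paralog pairs *Rpl7*, *Rpl22*, *Rpl36a* and *Rpl6*, and the longest gene models were named after their values were seen. Some genes that the rule names are not reported here.

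Replicate numbers come from the sample labels. Deviations of same-numbered libraries from their group means correlated over genes at 0.17, 0.17 and 0.14 in groups A and B. In groups C and D they correlated at -0.17, -0.07 and 0.11. In groups D and A they correlated at 0.09, 0.58 and 0.30, and in groups C and B at 0.28, 0.24 and 0.005. Over libraries of different groups, the mean correlation was 0.125 for the same number and -0.059 for other numbers. Of the 12 libraries, 9 correlated best on average with libraries of their own number. The main fit had no term for the replicate number, so its p-values are unpaired. A fit with that number as a block was run as an alternative. The fit was tested on simulated data before use. Alternatives were a pseudocount of 0.1, a filter at 5 FPKM or none, median-ratio, quantile or TPM scaling, the replicate number as a block, no trend, a fit of the compared groups alone, limma-voom on recovered reads and the omission of each library. Tables and plots were made in Python 3.11.15 (numpy 2.4.6, pandas 2.3.3, matplotlib 3.10.9, scipy 1.17.1).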

Additional observations from a re-analysis of the deposited data

Results flagged for a closer look

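By the interaction term in limma, at an adjusted p under 0.05, 2 of 78 tested members responded to TCA differently when Cu/ES was present, both being lower there, against 19.8% of all genes tested, and 0 were higher, against 17.7%. At an unadjusted p under 0.05 the counts were 6 lower and 0 higher, and the share of all genes at that p was not counted. *Rps27l* had an interaction of -1.09 on the log2 scale, its TCA effect being -1.02 with Cu/ES and 0.07 without, and *Rps2* had -0.48, its effect being -0.66 with and -0.18 without. Replicate 2 of group C, which stood apart from the other libraries of its group, was the highest of the 3 in both genes, and without it 23 members passed as lower, where 22.2% of all genes tested did.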

How the results depend on the processing

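Counts of members are given as passing both thresholds or the adjusted p alone, and the cause of the differences was not tested. Shares of all genes called were counted only in the main fit and in the fits that left out a library. In group B vs. A, 40 higher past both thresholds became 7 in TPM, 76 with median-ratio scaling (with or without limma-voom) and 0 with quantile normalization, 74 higher at the adjusted p became 37 with quantile normalization, and 2 lower became 4, 0 and 19, with 0 and 2 lower past both thresholds under the last 2 scalings. In group C vs. D, 28 higher past both became 6, 76 and 0, 73 higher became 38 with quantile normalization, 3 lower became 5, 1 and 22, and 1 lower past both became 2, 0 and 3. In group C vs. B, 16 lower became 8 with no filter, 4 with median-ratio scaling (5 in limma-voom), 10 with only the groups compared, and 7 with quantile normalization, which also called 12 higher and 0 lower past both. In group D vs. A, TPM called 1 lower and quantile normalization 3 higher and 6 lower. The interaction had 1 lower with no filter or median-ratio scaling, 1 higher in TPM, and 6 higher, 4 lower and 0 lower past both with quantile normalization, where the median of the members minus that of all genes turned to 0.024.

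Signs turned in TPM for *Rpl11* (-0.093 in group B vs. A, -0.15 in C vs. D) and *Rpl36* (-0.050 in C vs. D). With median-ratio scaling they turned for *Rpl3* (1.31 in B vs. A, 1.17 in C vs. D; 1.32 and 1.18 in limma-voom), *Rps2* (0.92 and 0.48 in both) and *Rps27l* (0.18 in B vs. A, 0.19 in limma-voom). With quantile normalization the values in B vs. A and C vs. D were -0.30 and -0.17 for *Rpl10*, -0.43 and -0.42 for *Rpl11*, -0.10 and -0.43 for *Rpl36*, -0.030 and -0.11 for *Rpl39*, -0.60 and -0.70 for *Rpl41*, -0.059 and -0.17 for *Rplp0*, -0.022 and -0.11 for *Rplp1*, -0.35 and -0.37 for *Rps18*, -0.16 and -0.039 for *Rps26*, -0.13 and -0.16 for *Rps27a* and -0.19 and -0.18 for *Rpsa*. *Rpl9* was at 0.16 in C vs. B and *Rplp1* at 0.16 in D vs. A.

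Leaving out each library gave 34 to 42 members higher past both thresholds in group B vs. A and 20 to 36 in C vs. D, with 72 to 73 higher, 2 to 3 lower and 1 to 2 lower past both there. It gave 5 to 48 lower in C vs. B (0 to 1 past both), 0 to 1 lower in D vs. A and 2 to 23 lower in the interaction, the highest values being those without replicate 2 of group C. The median of the members minus that of all genes in D vs. A ran from -0.081 to 0.030, and was above 0 without replicate 3 of group A (0.01), replicate 2 of group D (0.030) or replicate 3 of group D (0.005). With the replicate block, 74 members were higher and 2 lower in group B vs. A, 14 were lower in C vs. B, 72 were higher and 3 lower in C vs. D, and 2 were lower in the interaction, none of which moved a count by more than 1.5 times. Over the named members and all settings 2858 values kept their direction and side of the threshold, 35 passed it newly, 34 no longer passed it and 37 turned in sign. Genes with few reads limit only *Rpl3l* and *Rpl32l*.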
